A study of Mus musculus with 12 samples.

Results

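Foxf1, Foxc2 and Foxl1 are forkhead transcription factor genes that lie next to each other on mouse chromosome 8, with Mthfsd between Foxf1 and Foxc2. The locus was taken as chromosome 8 from 120.75 to 121.2 Mb (build mm10), and every GLI1 site and every H3K27ac interval in it was a member. These were 17 of 2605 GLI1 sites, 27 of 67463 H3K27ac intervals of control cells and 105 of 76437 H3K27ac intervals of doxycycline-treated (dox) cells. The window holds 4 protein-coding genes whole, out of 21900 in the annotation, and the high-coordinate end of a further one, Irf8. In mm10 Foxf1 spans chr8:121084386-121088154, Mthfsd chr8:121091628-121108413, Foxc2 chr8:121116171-121118895 and Foxl1 chr8:121127685-121130644.

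The cells were mouse cardiac progenitors grown from embryonic stem cells of the line GLI1-FTA, which the labels place in the A2Lox.cre strain, a stem cell background made for doxycycline-inducible transgenes. GLI1-overexpressing cells received 500 ng/ml doxycycline for 24 hours from day 5 and were harvested on day 6. Control cells of the same line and the same day, which carry the same transgene, were left untreated, so an effect of doxycycline itself and an effect of GLI1 cannot be told apart. The 12 samples formed 6 groups of 2 (GLI1 pulldown through its Avi-tag, H3K27ac immunoprecipitation and input, each in dox and control cells). The sources used here do not state whether the line is 1 clone or whether replicates were separate differentiations. Peaks were called by the authors on both replicates of a group combined, so each list has no spread between samples. No difference between conditions could be tested, and no p-value is given.

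GLI1 is a transcription factor at the end of the Hedgehog pathway and is itself switched on by Hedgehog signalling. H3K27ac, acetylation of lysine 27 of histone H3, marks active promoters and enhancers. Foxf1 acts in lateral plate and splanchnic mesoderm and is a known target of Hedgehog signals in the mesenchyme of gut and lung, and Foxl1 is a factor of gut mesenchyme. Foxc2 takes part in the development of heart, vessels and paraxial mesoderm. Fendrr is a long non-coding RNA gene next to Foxf1, and Mthfsd encodes a protein with a methenyltetrahydrofolate synthetase domain.

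Promoter sequences are shown for the genes whose starts bear on the acetylation values that follow. They come from a RefSeq promoter table of build GRCm38.p6, which is mm10, that holds 1 of the 4 member genes, and each reads 5′ to 3′ along the strand of its gene. The start of Fendrr (chr8:121083111-121083360, minus strand) lies inside the widest acetylated interval of dox cells in the locus. The start of Mthfsd (chr8:121108338-121108587, minus strand) is the only end of a member gene where acetylation was higher in control cells. For both, the 250 bases before the start are printed with each CG in capitals.
Fendrr: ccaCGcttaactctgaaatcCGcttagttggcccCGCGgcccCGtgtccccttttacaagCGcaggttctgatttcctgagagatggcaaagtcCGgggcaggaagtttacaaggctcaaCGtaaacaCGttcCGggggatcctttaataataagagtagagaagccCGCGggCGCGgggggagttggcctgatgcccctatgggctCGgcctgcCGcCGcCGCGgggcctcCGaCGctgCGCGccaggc
Mthfsd: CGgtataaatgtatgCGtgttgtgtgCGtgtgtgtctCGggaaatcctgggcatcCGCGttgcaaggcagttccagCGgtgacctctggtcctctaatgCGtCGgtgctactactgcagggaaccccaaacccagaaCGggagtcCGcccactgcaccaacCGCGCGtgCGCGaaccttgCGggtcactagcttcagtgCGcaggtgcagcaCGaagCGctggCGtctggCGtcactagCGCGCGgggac
Both are rich in G and C, 62% of the bases in each, with 23 CG in the promoter of Fendrr and 25 in that of Mthfsd.

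The promoters of the 11 genes of the window in that table, 15 windows of 300 bases (250 before the start and 50 after it), were searched on both strands for the GLI motif GACCACCCA and for its core ACCACCC, which is part of the longer motif. No window held GACCACCCA, which occurs in 0.253% of the 32851 promoters of the table. The core, present in 4.61% of all promoters, was found at 3 of the 11 genes, all long non-coding. One of these, Gm33199, had no acetylated region at its start in either list. The other two are shown with the core in capitals (ACCACCC, or GGGTGGT where it lies on the opposite strand), Gm39267 on the minus strand at chr8:120867572-120867871 and Gm33471 on the plus strand at chr8:120916693-120916992.
Gm39267: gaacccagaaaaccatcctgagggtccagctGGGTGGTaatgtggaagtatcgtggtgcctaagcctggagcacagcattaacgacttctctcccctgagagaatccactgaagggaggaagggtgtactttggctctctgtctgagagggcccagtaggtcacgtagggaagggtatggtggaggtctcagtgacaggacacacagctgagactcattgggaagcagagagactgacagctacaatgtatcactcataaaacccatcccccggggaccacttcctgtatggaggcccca
Gm33471: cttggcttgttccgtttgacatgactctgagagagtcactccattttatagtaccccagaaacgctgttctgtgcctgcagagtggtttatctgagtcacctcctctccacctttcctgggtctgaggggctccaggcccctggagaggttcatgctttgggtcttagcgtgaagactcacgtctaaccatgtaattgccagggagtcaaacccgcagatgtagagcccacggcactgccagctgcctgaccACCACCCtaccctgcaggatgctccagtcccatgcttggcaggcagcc
Each of these windows shared bases with a weak region found in dox cells alone, at 3.68 (fold enrichment) for Gm39267 and 3.36 for Gm33471. The nearest GLI1 site lay 6583 bp from the first and 3940 bp from the second. The absence of these letters says nothing about GLI1 at the other promoters.

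Several times as much of the locus lay in H3K27ac intervals in dox as in control cells, except beyond Foxl1 and at the start of Mthfsd. H3K27ac intervals covered 23422 bp of the window in control cells, 5.20%, and 149273 bp in dox cells, 33.2%, which is 6.37 times as much. Within these intervals the lists gave 53 summits in control and 311 in dox cells. Over the whole genome the covered length was 59.9 Mb in control and 66.0 Mb in dox cells, 1.10 times as much. The mean fold enrichment, weighted by interval width, was 11.7 in control and 18.4 in dox cells in the locus, against 13.2 and 11.95 in the genome. Fold enrichment is the authors' ratio of the read pileup at a summit over the background around it. The genome was also cut into fixed windows of 450 kb, of which 4989 held an interval or a site. None had as much acetylated length in dox cells or as large a gain as the 125851 bp found here, and the largest gain among them was 118592 bp. In control cells 772 of them had at least as much acetylated length. The fixed windows were not centred on any gene, whereas the present one was placed on this cluster.

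**Figure D1:**
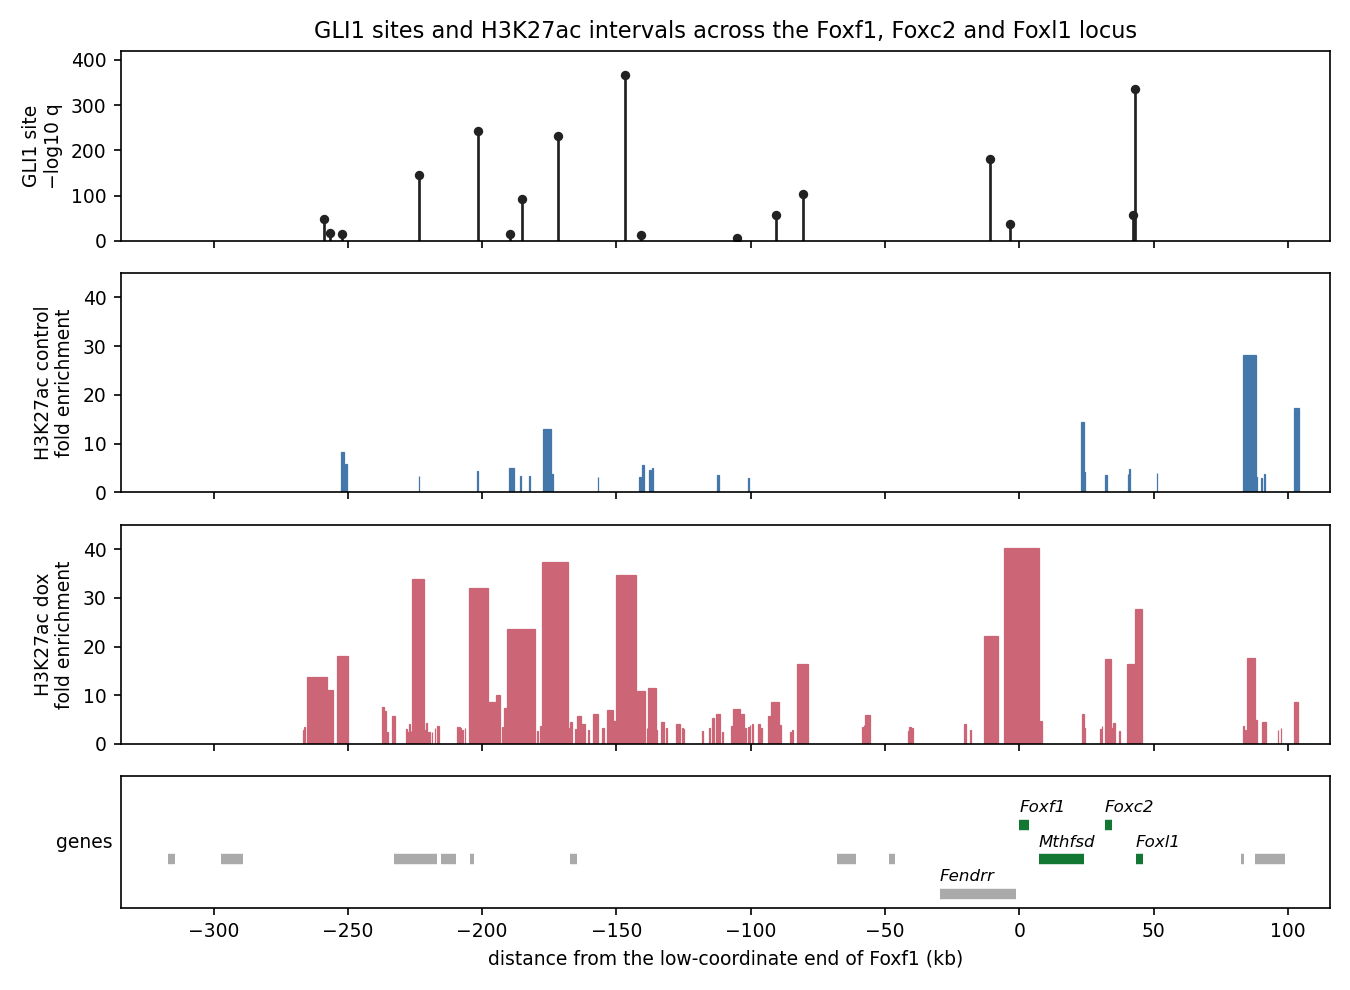
GLI1 sites (height, −log10 q), H3K27ac intervals of control and dox cells (height, highest fold enrichment; width, interval width) and annotated genes, by distance in kb from the low-coordinate end of Foxf1. The tallest control intervals (28.2 and 17.2) lie beyond Foxl1, while tall dox intervals stand at Foxf1 and along the stretch below it that holds 13 of the 17 sites.

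Overlapping intervals of the lists (by 1 bp or more) were joined into regions. A region was shared if both lists contributed to it, and otherwise dox-only or control-only. The locus held 103 of the 94481 regions of the genome. Of these, 17 were shared, 85 were dox-only (82.5%, against 35.5% of all regions) and 1 was control-only (27.1% of all regions). For shared regions the highest dox fold enrichment was divided by the highest control fold enrichment, and the median log2 ratio over all shared regions of the genome (−0.13) was subtracted to give a centred ratio. A centred log2 ratio of 1 or more is called higher in dox cells, and one of −1 or less lower. In the locus 10 of 17 shared regions were higher (6.78% of all shared regions) and 1 was lower (8.31% of all). Their median was 1.10, with a range from −1.08 to 3.45, and 4 of the 17 lay below 0, against 50% of all shared regions. These maxima need not lie at the same place in a region. When each highest control summit was set against the nearest dox summit instead, and the ratios were centred in the same way, 7 of the 17 regions were higher (6.34% of all shared regions) and 1 was lower, with a median of 0.84. When only peaks of −log10 q of at least 10 were kept, 6 shared regions with a median of 0.22 were left, while 8 of the other 11 became dox-only and 3 dropped out of both lists.

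The GLI1 sites are short windows around summits of the GLI1 pulldown in dox cells that the authors selected for a Gli motif. Each has a deposited value that is read here as a −log10 q from the layout of the list, since no header names it. GLI1 sites of control cells were not analysed here. All 17 sites of the locus shared bases with a dox H3K27ac interval, against 75% of all sites. Sites of a locus are not replicates, so the shares that follow are descriptions. A control interval shared bases with 3 of the 17, 17.6%, against 25% of all sites. The number was 6 when the sites were widened by 500 bp and 1 when only peaks of −log10 q of at least 10 were kept. The remaining 14 lay in acetylated chromatin of dox cells alone, against 50.6% of all sites. Only 1 of the fixed windows held at least as many sites, with 19.

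Positions below are given in kb from the low-coordinate end of Foxf1, negative toward lower coordinates. The −log10 q of the 17 sites ran from 5.75 to 365 with a median of 57.8, against 1.36 to 589 and a median of 30.8 over all sites. Both ends of the scale were represented, with 6 sites among the strongest 10.0% of all sites and 5 among the weakest 25.6%. The strongest, at −146.7 kb (chr8:120937606-120937706), had a −log10 q of 365 and ranked 12 of 2605. The next, at 43.2 kb (chr8:121127527-121127627), had 336, ranked 17 and ended 58 bp before the low-coordinate end of Foxl1. These sites stand far apart, one in intergenic chromatin and the other beside a gene.

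Most of the other strong sites lay in the stretch far below Foxf1. The site at −201.4 kb had a −log10 q of 242, the site at −171.7 kb had 232 and the site at −223.4 kb had 144. The site at −10.9 kb, inside the gene Fendrr, had 181. A second group of moderate strength was made up of the sites at −80.6 kb (104), −185.2 kb (91.7), −90.5 kb (57.8), 42.4 kb (56.1), −258.8 kb (47.2) and −3.5 kb (37.96), where the number in parentheses is the −log10 q. The weakest were those at −256.6 kb (16.9), −252.2 kb (16.1), −189.7 kb (14.7), −140.7 kb (12.9) and −105.1 kb (5.75).

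Sites were spread rather than packed at the genes. Gaps between neighbouring sites ran from 753 to 69656 bp with a median of 12604 bp, and the distance to the nearest end of a protein-coding gene had a median of 90463 bp. Only the sites at 42.4 and 43.2 kb, both at Foxl1, lay within 1000 bp of a gene end. Each site fell between H3K27ac summits: all 17 had a dox summit within 1000 bp on both sides, as did 83% of all sites and 96.6% of all sites in a dox interval. The nearest was 140 to 479 bp away (median 303 bp, against 269 bp over all sites in a dox interval). At the strongest site the flanking summits had fold enrichments of 26.3 on the low side, 490 bp away, and 34.6 on the high side, 347 bp away. At the site beside Foxl1 they had 16.5 and 27.7, 385 and 475 bp away.

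Regions with a GLI1 site were the tall and wide ones. There were 16 of them (1.86% of all regions of the genome held a site), 7 shared and 9 dox-only, against a dox-only share of 55.3% over all site-holding regions. Their median dox fold enrichment was 20.1, and 14 of the 16 reached 10, against a median of 12.9 and a share of 63.6% over the 1760 site-holding regions of the genome. The 87 regions without a site had a median dox fold enrichment of 3.46, and 4 of them reached 10. Over all regions of the genome, with or without a site, the median was 4.24, and 11903 of 94481 reached 10. Regions with and without a site were not matched for width. Dox intervals in regions with a site covered 2049 to 13000 bp (median 4350 bp), 89564 bp in all. Regions without one covered 200 to 4633 bp (median 375.5 bp). All 7 shared regions with a site were higher in dox cells, with a median centred log2 ratio of 1.89 and a range from 1.07 to 3.45. Over the genome 51.2% of the 783 shared regions with a site were higher, with a median of 1.03. At the dox summit nearest the highest control summit 5 of the 7 were higher (median 1.33), against 41.8% of the 783. The 10 without a site had a median of 0.41, and 3 of them were higher and 1 lower, against 6.78% and 8.31% of all shared regions. Members of a locus are not replicates, so these differences are descriptions. Across the 17 sites, which lay in 16 different dox intervals of the same pool, the −log10 q of a site and the dox fold enrichment of its interval had a Spearman rho of 0.61 (Pearson r of 0.68 on log scales).

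The low-coordinate side, from the window start to the last base before Fendrr, held 13 sites and 82 of the 103 regions. Acetylated intervals covered 4.26% of it in control and 36.4% in dox cells. All 10 shared regions of this side had a ratio above 0 (median 1.303), 72 regions were dox-only and none was control-only. The first interval began 67726 bp into the window in dox and 81807 bp in control cells, so the end of Irf8, a gene of blood cell development, had none. The tallest region of this side (chr8:120906674-120916333, with the site at −171.7 kb) was already acetylated in control cells. Its highest fold enrichments were 13.1 in control and 37.4 in dox cells, for a centred log2 ratio of 1.65, but these stood at different places, the control summit at position 120908145 and the dox summit at 120912913. Control intervals ended at 120910701. Within their span the 7 dox summits had 4.37 to 11.1, and the one nearest the highest control summit had 9.22, a centred log2 ratio of −0.30. Whole-number read pileups were recovered from the deposited values. Their log2 ratios were scaled by depth but not centred, so they are not on the scale of the centred ratios. The median of such uncentred ratios over all shared regions of the genome was below 0, so 0 is not their genome-wide middle. Between the nearest summits the depth-scaled log2 pileup ratio was −0.02 (95% interval −0.58 to 0.55, counting error only). The highest dox summits of this region thus stood outside its control intervals. The largest ratios came from regions that were weak in control cells. The region of the site at −223.4 kb (chr8:120858115-120862675) was at 3.39 in control and at 33.9 in dox cells, for a centred log2 ratio of 3.45 (pileup ratio 3.60, 2.76 to 4.58). The region of the site at −201.4 kb (chr8:120879397-120886714), which includes the long non-coding RNA gene Gm26878, had 4.34 and 32.0, a ratio of 3.01. At the dox summit nearest the control summit, 112 bp away, it had 25.8, a ratio of 2.77 (pileup ratio 2.82, 2.07 to 3.67).

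The region of the sites at −189.7 and −185.2 kb (chr8:120893592-120904169, 10578 bp) was at 4.93 in control and at 23.6 in dox cells, with a ratio of 2.39 (2.402 at the nearest dox summit). Lower on the scale were the region of the site at −252.2 kb, with 8.28 and 18.1 (1.26), and that of the site at −140.7 kb, with 5.62 and 10.8 (1.07). At the nearest dox summits these had ratios of 1.33 and 0.84. The strongest site of the locus, at −146.7 kb, lay in a region that had no control interval at all. This dox-only region (chr8:120934385-120941868, 7484 bp) reached 34.6 in dox cells. Dox-only regions with weaker values held the sites at −80.6 kb (16.5), −258.8 kb (13.7), −256.6 kb (11.1), −90.5 kb (8.65) and −105.1 kb (7.12), the dox fold enrichment standing in parentheses. Of the 85 dox-only regions of the whole locus 64 had a fold enrichment under 5, and 7 of the 8 that reached 10 held a site. Dox-only regions had a median fold enrichment of 3.54 in the locus and 3.51 over the genome, so their mostly low values are not particular to it. How often tall dox-only regions elsewhere hold a site is not given here. The lowest fold enrichment anywhere in the lists was 1.85 in control and 1.96 in dox cells, so a region without a control interval may still have held weaker signal.

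**Figure D2:**
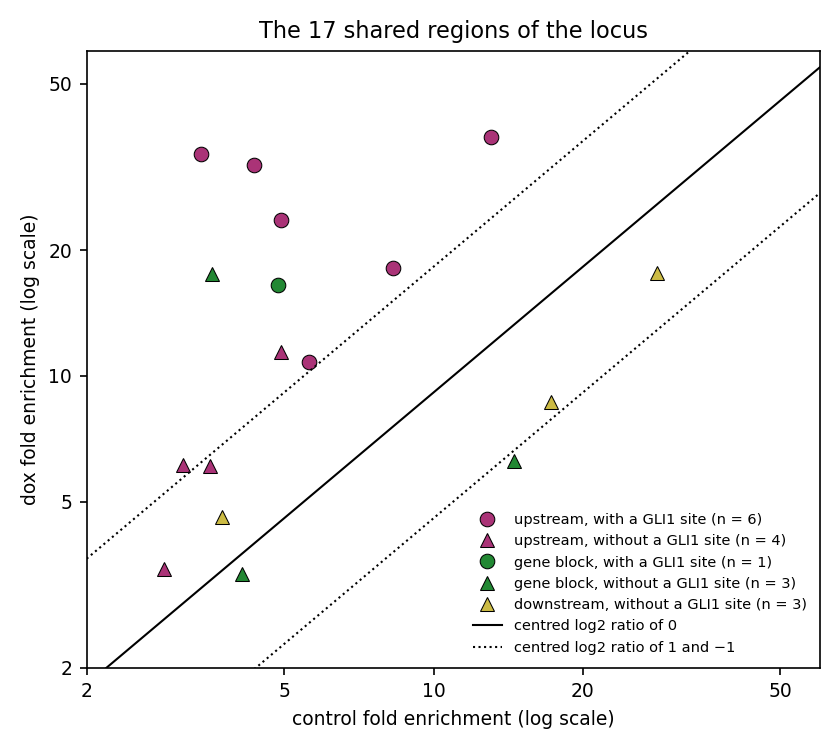
Highest fold enrichment in control (x axis) and dox cells (y axis), both on log scales, of the 17 shared regions, by segment and by whether they hold a GLI1 site; both maxima are of the whole region and can lie apart. The solid line is the genome-wide median ratio and the dotted lines are centred log2 ratios of 1 and −1; all 7 regions with a site lie above the upper dotted line, and the lowest 3 ratios belong to the start of Mthfsd and to 2 regions beyond Foxl1.

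Foxf1 itself had the tallest acetylated region of the locus, in dox cells alone. It was 1 dox interval of 13000 bp (chr8:121078639-121091638) that covered the whole of Foxf1, the start of Fendrr and the first bases of the low-coordinate end of Mthfsd. Its fold enrichment was 40.2 (95% interval 34.6 to 46.3 from the recovered pileup of 189 reads, counting error only). Of the 76437 dox intervals 22 were at least as wide and 297 at least as high. A gene end was taken as 1000 bp on either side of each annotated end, and the value of a region that reached it as the highest in the region, which may lie farther off. Regions of dox cells alone lay at the ends of 603 genes (2.97% of 20312 analysed), and no value among them was higher than that of Foxf1. Counting only summits that themselves lay within 1000 bp of an end, Foxf1 had 34.0, the second highest value among 660 genes with such summits in dox cells alone (3.25%).

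The domain around Foxf1 held 28 summits. The tallest, 40.2, lay at −1442 bp from the low-coordinate end of Foxf1 (position 121082944), just inside the start of Fendrr. The next in height was 34.0, and the tallest inside Foxf1 was 25.02. Summits were lower on both sides, and the outermost had 5.50 and 4.89. The GLI1 site at −3.5 kb (−log10 q 37.96) fell in this domain, and the stronger site at −10.9 kb lay in a separate dox-only region with a fold enrichment of 22.1 (chr8:121071085-121076517). Both sites are inside Fendrr, whose gene span was acetylated over 38.2% in dox cells and 0% in control cells.

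No control interval touched Foxf1. It lay in the longest stretch of the window without one in control cells, 123648 bp (chr8:120983735-121107382). In dox cells the same stretch held 24 intervals covering 34387 bp, and 4 GLI1 sites. The running peak numbers of both lists skip none in the window (0 missing in each).

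**Figure D3:**
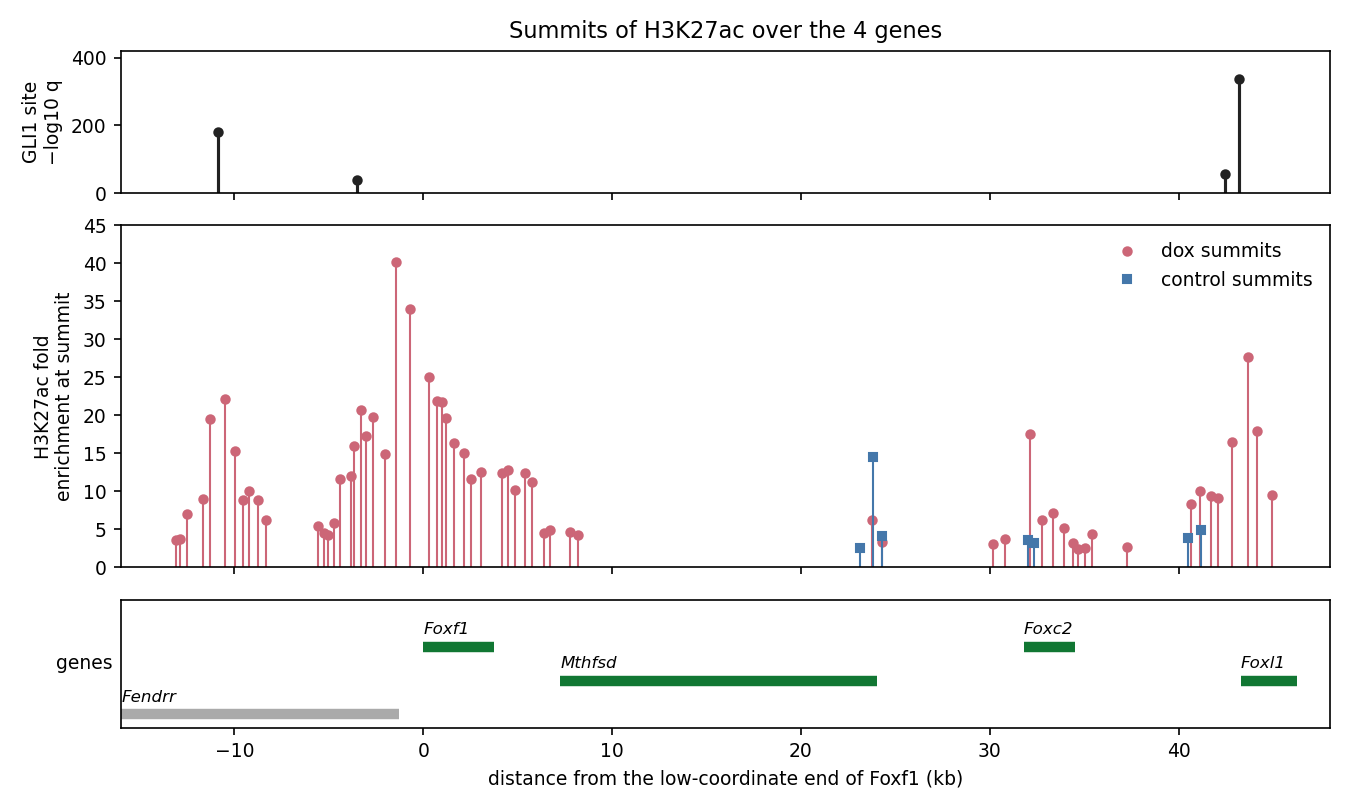
Fold enrichment at every H3K27ac summit of control (squares) and dox cells (circles) from below the site at −10.9 kb to beyond Foxl1, with GLI1 sites above (−log10 q) and genes below, by distance in kb from the low-coordinate end of Foxf1. The tallest summit, 40.2 in dox cells, stands at the low-coordinate side of Foxf1, where control cells had none, and the one control summit of 14.5 stands at the start of Mthfsd.

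Foxc2 had weak acetylation in control cells and several times that in dox cells, and Foxl1 was acetylated at its low-coordinate end in dox cells alone. At the ends of Foxc2 the highest values were 3.57 in control and 17.5 in dox cells, both from the same region (chr8:121116147-121118519), a centred log2 ratio of 2.42. Control intervals covered 27.3% of Foxc2 and dox intervals 93.7%. The highest summits lay 252 and 362 bp from an end of the gene, so the ratio was the same from summits within 1000 bp. It ranked 10 among the 9846 genes whose ends were acetylated in both lists, of which 3.77% were higher. By recovered pileups, 22 and 82 reads, the depth-scaled log2 ratio, which is not centred, was 1.54 (0.85 to 2.29). This pileup ratio was above 0 over the whole counting interval. It was smaller than the ratio of 2.42 by more than the centring of −0.13 accounts for. Fold enrichment also divides by the local background of each list, which the pileup ratio leaves out, and the rank of 10 is by fold enrichment. No GLI1 site lay in Foxc2, and the nearest was 7879 bp away.

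At Foxl1 the highest dox summit, 27.7, lay 367 bp from the low-coordinate end, in a dox-only region over that end (chr8:121127585-121129982). It was the fifth highest value among the 660 genes with summits near an end in dox cells alone. Control intervals covered 0% of Foxl1 and dox intervals 77.6%, and the nearest control interval ended 1999 bp below the gene. That interval lay in a shared region (chr8:121124688-121127532) which a dox interval carries to within 1000 bp of Foxl1. By the rule for whole regions the gene therefore had 4.86 in control and 27.7 in dox cells, a centred log2 ratio of 2.64 that ranked 7 of 9846. By separate intervals, by the gene body or by summits within 1000 bp it had no control value and so neither a ratio nor this rank. The shared region itself had 4.86 and 16.5, a ratio of 1.89, and 10.04 at the dox summit nearest the control summit, a ratio of 1.25 (pileup ratio 0.64, −0.08 to 1.40). The site of rank 17 sat at the border of both regions, sharing bases with both.

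Mthfsd had less acetylation in dox than in control cells at its start. Its low-coordinate end lay in the Foxf1 domain, so taking both ends together gave it 14.5 in control and 40.2 in dox cells, a centred log2 ratio of 1.60. The value of 40.2 lay at position 121082944, far from that end, and summits within 1000 bp of it had at most 4.89 in dox cells and none in control cells. At its annotated start, the high-coordinate end whose promoter is printed above, fold enrichments were 14.5 in control and 6.24 in dox cells (chr8:121107383-121108395), a ratio of −1.08. The recovered pileups of 64 and 38 reads gave −1.11 (−1.73 to −0.51). The nearest GLI1 site was 18187 bp from this promoter. The ratio of −1.08 was the lowest of the 17 shared regions. Summits within 1000 bp of an end gave Mthfsd the same −1.08, and by these 2.12% of the genes with values in both lists were lower. The neighbouring region across the start had 4.11 and 3.35, a ratio of −0.16 (pileup ratio −0.58, −1.58 to 0.40).

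**Figure D4:**
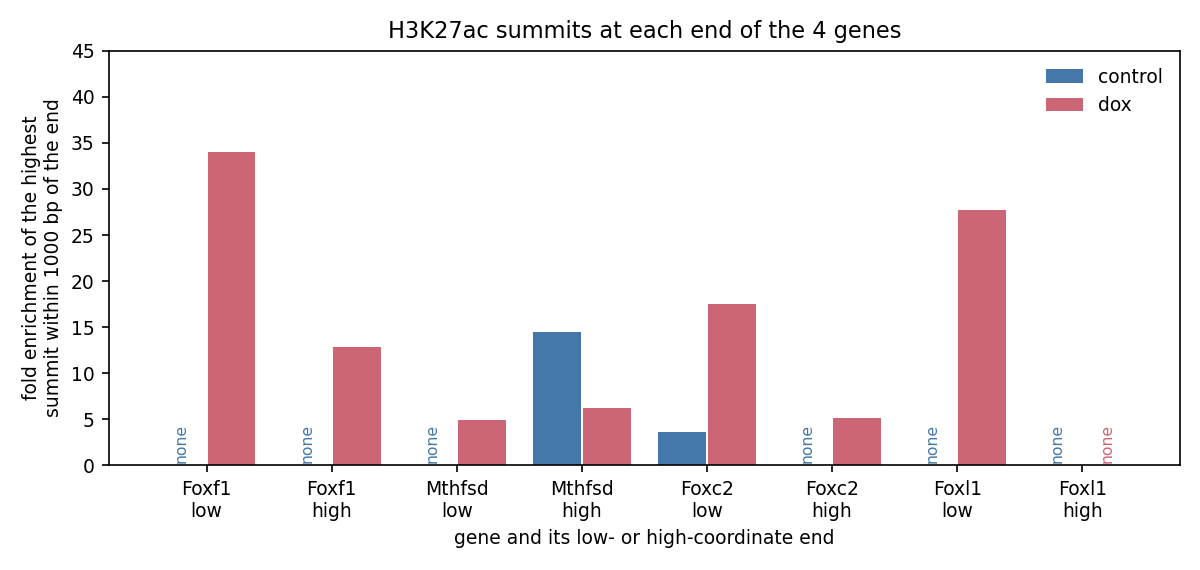
Fold enrichment of the highest H3K27ac summit lying within 1000 bp of each end of the 4 genes, in control and dox cells; "none" means no summit there in that list. Of the 8 ends 7 have a dox summit and 2 a control summit, and the high-coordinate end of Mthfsd, its annotated start, is the one with a higher value in control (14.5) than in dox cells (6.24).

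Gene ends and distal chromatin were compared within the locus. Of the 103 regions 10 lay within 1000 bp of an end of a protein-coding gene, 4 shared and 6 dox-only, and the other 93 were distal, 13 shared, 79 dox-only and 1 control-only. The median ratio of the shared regions was 0.87 at gene ends and 1.10 in distal chromatin, with ranges from −1.08 to 2.42 and from −0.86 to 3.45. The ranges overlap between −0.86 and 2.42, and the one at gene ends rests on 4 regions. Distal regions made up 125709 bp of the acetylated length in dox cells and gene-end regions 23564 bp. Of the 17 sites 15 were distal. Most regions were dox-only in both classes, against 35.5% of all regions of the genome, and the sites stood mostly away from the genes. The same shares for gene-end and distal regions of the genome, and the places of all sites, are not given here. Neither count is therefore read as particular to this locus.

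The block from Fendrr to Foxl1 had the highest covered share in dox cells, 40.0%, against 3.49% in control cells. Beyond Foxl1 the picture was different. That side held no GLI1 site, and intervals covered 11.2% of it in control and 11.5% in dox cells. Its strongest region (chr8:121167532-121173038), at the long non-coding RNA genes Gm33633 and Gm42046, was at 28.2 in control and at 17.6 in dox cells, with a ratio of −0.55 (pileup ratio −0.76, −1.13 to −0.40). A second strong region (chr8:121186812-121188446) had 17.2 and 8.64, a ratio of −0.86 (−1.10, −1.71 to −0.50). The third shared region of this side had 3.75 and 4.59, a ratio of 0.42. The only control-only region of the locus (3.92) was also here. Neither strong region was lower by the rule of −1. The counting intervals of both uncentred pileup ratios lay below 0, but the genome-wide median of such ratios is itself below 0.

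Long non-coding RNA genes were described in the same way. Of the 11 in the window, Fendrr (40.2), Gm26878 (18.3), Gm39267 (5.65), Gm33471 (5.12) and Gm33368 (3.46) had summits within 1000 bp of an end in dox cells alone, with the highest fold enrichment in parentheses. Gm33633 and Gm42046, beyond Foxl1, had such summits in both lists, Gm33633 with 6.54 in control and 3.71 in dox cells and Gm42046 with 3.82 and 4.87. The remaining 4 had none in either list. Fendrr is known to be needed for heart and body wall development in the mouse.

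**Figure D5:**
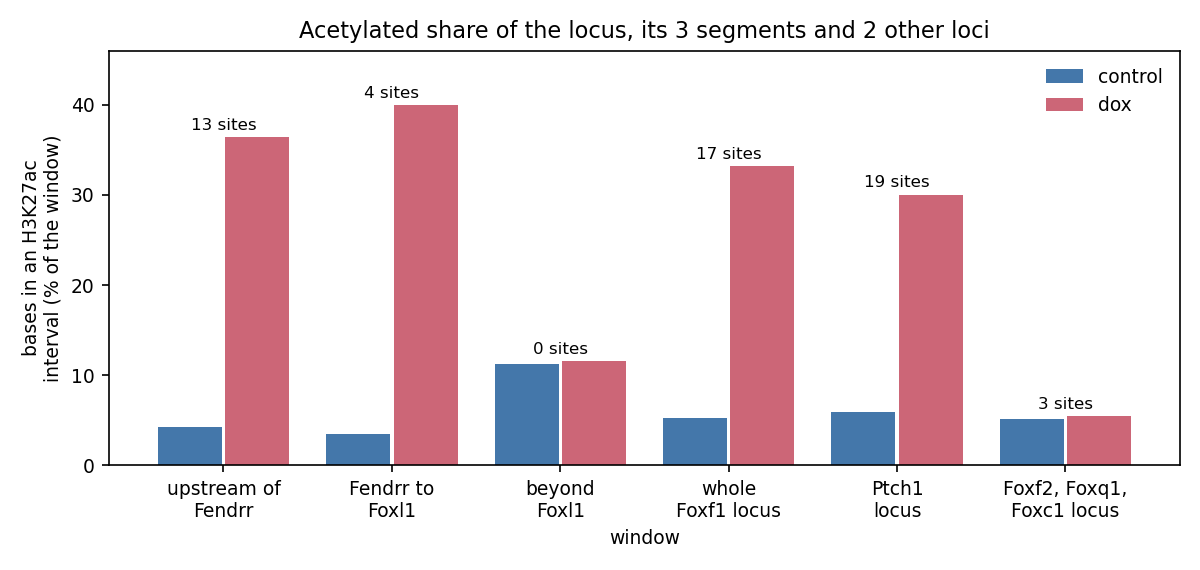
Share of each window's bases in an H3K27ac interval, in percent, in control and dox cells, with the number of GLI1 sites above the bars. Upstream of Fendrr the share is 4.26% in control and 36.4% in dox cells, beyond Foxl1 it is 11.2% and 11.5%, and the Foxf2, Foxq1 and Foxc1 locus has 5.09% and 5.48%.

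The forkhead cluster on chromosome 13 offers a comparison, since Foxf2 and Foxc1 are the paralogues of Foxf1 and Foxc2 and lie together as well, with Foxq1 beside them. A window of equal length around them held 3 GLI1 sites, and intervals covered 5.09% of it in control and 5.48% in dox cells. It held 7 shared, 11 dox-only and 13 control-only regions, and its shared regions had a median ratio of −0.22. Foxf2 was acetylated at its ends in dox cells alone (21.4). Foxc1 had 33.4 in control and 25.1 in dox cells, a ratio of −0.28, and Foxq1 had no region in either list. The window around Ptch1, the gene of the Hedgehog receptor, was nearer to the Foxf1 locus, with 19 sites and a covered share of 5.89% in control and 30.0% in dox cells. These windows are single loci, so no test of the difference was possible.

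Of the 44 forkhead genes 19 had a region at an end in both lists, 4 in dox cells alone (9.09%, against 2.97% of all genes), 1 in control cells alone and 20 in neither. The list includes Foxf1, Foxc2 and Foxl1, for which the locus was chosen, so its shares are not independent of that choice. Of the 19, 3 were higher and 1 was lower, against 3.77% and 2.04% of all genes with a region in both lists. Higher were Foxc2, Foxl1, with the limit given above, and Foxo1 (3.85 and 9.51, a ratio of 1.44). Lower was Foxh1 (19.0 and 6.89, −1.33), whose product works with SMAD proteins downstream of Nodal. Besides Foxf1, the genes with a value of at least 10 in dox cells alone were Foxa2 (34.0), a regulator of endoderm and floor plate, and Foxf2 (21.4). Foxd1, also in dox cells alone, had 2.59. The median ratio of the 19 was −0.11, against 0.14 over all genes. For 13 of the 44, with Foxf1, Foxc2 and Foxl1 among them, the nearest GLI1 site was no farther than 50000 bp, against 13.5% of all genes. By summits within 1000 bp of an end, 6 of the 44 had a value in dox cells alone (3.25% of all genes), 17 had values in both lists, and the higher ones among these were Foxc2 and Foxo1 (3.79% of all genes with values in both), and Foxa2 and Foxf2 had 11.6 and 17.7.

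Of 14 Hedgehog pathway genes counted, 11 had a region at an end in both lists. Of these 3 were higher and 0 lower, against 3.77% and 2.04% of all genes with such regions. The median of the 11 was 0.35, against 0.14 over all genes. The higher ones were the receptor gene Ptch1 (centred log2 ratio 1.15), Hhip (2.20), whose product binds Hedgehog ligands, and Gli1 (2.103). Between 0 and 1 were Dhh (0.82), Sufu (0.50) and Smo (0.35). Below 0 were Gli3 (−0.89), Boc (−0.76), Gli2 (−0.54), Gas1 (−0.38) and Cdon (−0.32). Of these, Gli2 and Gli3 encode the other GLI factors and Boc, Cdon and Gas1 co-receptors. Kif7 had a region in control cells alone, and the ligand genes Shh and Ihh had none. By summits within 1000 bp of an end Ptch1 had a value in dox cells alone (49.8), Hhip and Gli1 had ratios of 2.96 and 2.61, and Gli2 was lower, at −1.06.

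The labelled cell type was checked against markers at gene ends. Of 10 cardiac genes 5 had a region in both lists (Hand2, Isl1, Myh7, Tbx20 and Tnnt2). Their fold enrichments were 10.4 to 24.5 in control and 3.74 to 21.0 in dox cells. Lower were 2 of these 5, Tnnt2 (−1.35) and Hand2 (−1.05), against 2.04% of all genes with a region in both lists. The other 5, Gata4, Mef2c, Myh6, Nkx2-5 and Tbx5, had none in either list. The 3 neural markers analysed (Sox1, Pax6 and Tubb3) had none, and of 4 endoderm markers Foxa2 (34.0) and Ttr (9.51) had a region in dox cells alone. Whether a different make-up of the cell population took part in the values at the Foxf1 locus was not tested, and in pooled cells more acetylation per cell and more cells of an acetylated type cannot be told apart.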

How the data were processed

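H3K27ac and tagged GLI1 were profiled by chromatin immunoprecipitation and sequencing. Bowtie2 2.3.2, SAMtools 1.5, MACS2 2.1.1 and build mm10 are named in the submitters' processing notes, with no role for each. Per the deposited peak names the authors combined replicates before calling peaks, so each list stands for 2 samples. The deposited H3K27ac lists give a fold enrichment, a ratio of pileup to local background, with −log10 p and −log10 q values and a score that repeats the −log10 q. The deposited GLI1 list gives windows of 101 bp with a value read as −log10 q from the layout of the list, as no header names it; how the Gli motif was judged is not given in the sources used here. Control GLI1 and input lists were not analysed here.

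Intervals sharing at least 1 bp were merged into regions, and from each log2 ratio of fold enrichments the genome-wide median of shared regions was subtracted. Reads per library are unknown. For 99.96% of control and 99.92% of dox summits a whole-number pileup was found that gives back both deposited values, the fold enrichment and the −log10 p, to within 0.01. The ratio of their uniform backgrounds, 3.63 reads in dox and 2.83 in control cells, was used as the ratio of depths, 1.28. Pileup ratios were divided by this ratio and were not centred, and their genome-wide median over shared regions is below 0. Intervals of pileup ratios are exact conditional binomial (Clopper-Pearson) at 95% and cover counting error only. Gene ends are 1000 bp on either side of the annotated ends in a RefSeq table of GRCm38.p6; the value of a region reaching an end is its highest summit, wherever that lies, and values from summits within 1000 bp are given where they differ; 1588 of 21900 genes lay at skipped peak numbers and were not analysed.

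The members, the gene lists and the rules were chosen with earlier results of these data known. By the rule for names, the 4 genes, all sites, the 10 tallest dox regions, regions with a site, the 3 lowest shared ratios and any control-only region with −log10 q of at least 5 (none) are named; of the forkhead and Hedgehog lists, genes past a ratio of 1 in size or with a fold enrichment of at least 10 in 1 list alone. One result of the Hedgehog list, and the counts that include it, are not reported here. The 3 segments of the window, the pileup ratios of single regions, and other named items were added after the values were seen. Alternatives covered the overlap, the peak threshold, merging, depth, centring, gene end distance and window. Python 3.11.15, pandas 2.3.3, numpy 2.4.6 and scipy 1.17.1 were used, and the scripts were tested on simulated data.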

Additional observations from a re-analysis of the deposited data

How the results depend on the processing

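The strictness of the peak threshold moved counts most. With peaks of −log10 q of at least 10 the locus had 6 shared, 30 dox-only and 0 control-only regions, 1 site in a control peak and a median centred log2 ratio of 0.22. Of the 11 shared regions lost there, 8 became dox-only and 3 dropped out of both lists. With −log10 q of at least 5 it had 11 shared and 43 dox-only regions. Merging across gaps of up to 500 bp left 39 dox-only regions, and widening sites by 500 bp put 6 of them in a control peak. The dox-only share stayed above that of all regions in each of these: 83.3% against 26.2% at −log10 q of at least 10, 78.2% against 31.4% at 5, and 69.6% against 31.3% with gaps merged. With dox summits scaled to the control depth and those below the lowest control −log10 p dropped, the locus kept 81 dox-only regions. The share was then 81.8% against 34.5%. Reads were not thinned for this, and intervals kept their widths. Some alternatives were chosen after seeing the data. The ratio of Mthfsd was reversed, at −1.08, both at its annotated start alone and by summits within 1000 bp of a gene end, and by such summits Foxf1 had 34.0. For Foxl1 no ratio could be given by these summits, by the gene body or by separate intervals, since control had no value there. At the dox summit nearest the highest control summit the median ratio of the shared regions was 0.84, with 1.33 for those with a site and 0.45 for those without. Other distances around gene ends left the values of the 4 genes as they were, because a value is the highest of a whole region, so they are no check of these values. Depth limits the weak dox-only regions, which a control pool of fewer reads could miss. No paired analysis was possible because the replicates were pooled in each list, and for the same reason replicates could not be left out in turn.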
